A study of Mus musculus with 10 samples.

Results

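The p53 pathway was followed through 38 mouse genes: Trp53, which encodes p53, its negative regulators, and well-known p53 target genes outside the CDK inhibitors, the sestrins and the BCL2 family. The genes were chosen by symbol, and all 38 were found among the 54446 gene identifiers of the count files. They were measured by sequencing of polyadenylated RNA from tumours of TH-MYCN mice, a strain that carries a human MYCN transgene behind a tyrosine hydroxylase promoter and develops neuroblastoma in sympathetic tissue. Every group carried the transgene. The groups were tumours of untreated mice (n = 3), tumours after 24 h of treatment (n = 3) and tumours after 5 days of treatment (n = 4). The treatment was MLN8237 (alisertib), which blocks the kinase Aurora-A needed in mitosis, together with AZD6738 (ceralasertib), which blocks the checkpoint kinase ATR, as the sample titles call it a combination. The design text joins the drug names with "or", and neither drug alone was profiled here. The sources used here give no dose, route, age or sex. The labels do not tie libraries to individual mice. P-values therefore measure only how far these libraries spread.

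p53 is a transcription factor that is kept scarce by the ubiquitin ligase Mdm2 and restrained by its relative Mdm4. DNA damage and replication stress, signalled through the kinases ATM, ATR, CHK2 and CHK1, stabilise the protein, which then switches on genes for cell cycle arrest, cell death, DNA repair and metabolism. Mdm2 and the phosphatase Ppm1d are themselves targets and close negative feedback loops. The messenger RNA of Trp53 itself usually says little about p53 activity, because the control acts mainly on the protein, which was not measured here.

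Libraries held 5576926 to 5696436 counts, and 3 counts corresponded to 0.513 to 0.649 CPM, the count normalised to the scaled library size. One library of the 5-day group, library 1, stood apart from the other 9: across genes, its Spearman correlations with them averaged 0.740, whereas those of the other libraries averaged 0.944 to 0.954. Its 11 sympathetic neuroblast markers (among them Th and Dbh) summed to 574 CPM, against 2109 to 2680 CPM in untreated tumours and 1671 to 2233 CPM in 5-day libraries 2 to 4. Its 12 macrophage markers summed to 14004 CPM, against 586 to 999 CPM in untreated tumours, and its 8 fibroblast markers to 17372 CPM, against 909 to 2639 CPM. In these bulk samples fewer cells of a type and less RNA per cell cannot be told apart. Fold changes of single genes at 5 days are therefore given with and without this library. 5-day library 2 held the most adrenal cortex marker RNA (1600 CPM over 7 genes, against 11.9 to 14.8 CPM in untreated tumours) and the most skeletal muscle marker RNA (403 CPM, against 5.05 to 5.94 CPM).

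Of the 38 genes, 35 had enough counts to be tested. The protein tyrosine phosphatase gene Ptprv (37 counts over all 10 libraries) and the desmosomal death gene Perp (55 counts) were too low, and Fbxw7, a ubiquitin ligase subunit, was listed at 0 in every library. So were 4555 of the 21918 protein coding genes of the table, so a listed 0 need not mean that the gene was silent. Gdf15 and Fas reached the filter only through treated libraries, so their being tested depends on the groups. Per kilobase of exon, the most abundant of the genes in untreated tumours was the ribosomal protein paralogue Rps27l at 114 ± 16.4 RPKM (SD, n = 3). It was followed by the apoptosis inhibitor Triap1 at 35.3 ± 5.26 RPKM, the G2 gene Gtse1 at 33.2 ± 2.63 RPKM, Trp53 at 26.9 ± 1.08 RPKM and Ccng1 at 23.7 ± 5.26 RPKM (SD, n = 3 each). Triap1 and Gtse1 did not differ beyond their spread. The lowest of the tested genes were Gdf15 at 0.439 ± 0.144 RPKM, Fas at 0.506 ± 0.589 RPKM and Dgka at 0.597 ± 0.231 RPKM (SD, n = 3 each), which lay within each other's spread. Reads of Ddb2 are uncertain, because 23.8% of its exon bases overlap Acp2 on the opposite strand, and the same holds for Gadd45a, with 19.1% shared with E230016M11Rik.

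After 24 h of treatment, target genes were mostly higher than in untreated tumours, by amounts that did not pass the test across all genes. The means of Trp53inp1 (an autophagy and death gene), Ephx1 (an epoxide hydrolase), Phlda3 (an AKT inhibitor) and Gtse1 were 1.64 to 3.04 times the untreated ones, whereas Trp53 itself was at the untreated level. In 12 of the 35 tested genes (34.3%) all 24 h libraries lay above all untreated libraries, against 7.1% of all tested genes. In 0 of 35 did all lie below, against 6.67%. Without 5-day library 1 the shares were 12 of 34 (35.3%, against 7.13%) and 0 of 34 (against 6.7%). The 12 were Mdm2, Ppm1d, Ccng1, Btg2, Gtse1, Plk2, Gdf15, Phlda3, Trp53inp1, Tnfrsf10b, Pidd1 and Ephx1. Log2 fold changes were above 0 for 29 of 35 genes (82.9%, against 48.5% of all tested genes) and above 0.3 for 15 (42.9%, against 14.8%). They were below -0.3 for 0 of 35, against 9.91% of all tested genes. Without 5-day library 1 these shares were 28 of 34 above 0 (82.4%, against 49.5%), 15 above 0.3 (44.1%, against 14.5%) and 0 below -0.3 (against 9.1%). The median log2 fold change was 0.20, beside -0.01 over all tested genes. Leaving out Gdf15 and Fas, which passed the filter only through treated libraries, 11 of 33 genes (33.3%) were separated upwards, 27 of 33 (81.8%) were above 0 and 14 of 33 (42.4%) were above 0.3.

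In the edgeR quasi-likelihood fit of all 10 libraries, none of the 14956 tested genes was called at 24 h, at a Benjamini-Hochberg adjusted p under 0.05 (0% called), and DESeq2 called 0 as well. At an unadjusted p under 0.05, edgeR gave 171 higher genes (1.14%) and 92 lower genes (0.615%) in all, and 1 of the 35, Trp53inp1. The biological coefficient of variation of that fit was 40.8%, against 18.9% without 5-day library 1, which is in neither of the groups compared. Without that library, 9 of 34 tested genes (26.5%) were higher at an unadjusted p under 0.05, against 4.56% of all genes, and 0 were lower, against 3.54%. They were Mdm2, Ccng1, Btg2, Gtse1, Phlda3, Zmat3, Trp53inp1, Tnfrsf10b and Pidd1. After adjustment edgeR then called 2 genes in all (0.0136%) and none of the 34, while DESeq2 called 105, 82 of them higher (0.558%), with Gtse1 and Trp53inp1 among the latter. In a fit of the untreated and 24 h libraries alone, edgeR called 7 genes (0.049%), among them Trp53inp1 (adjusted p = 0.0382). limma voom with library weights called 3 genes (0.0201%), none of them of the 35.

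**Figure D1:**
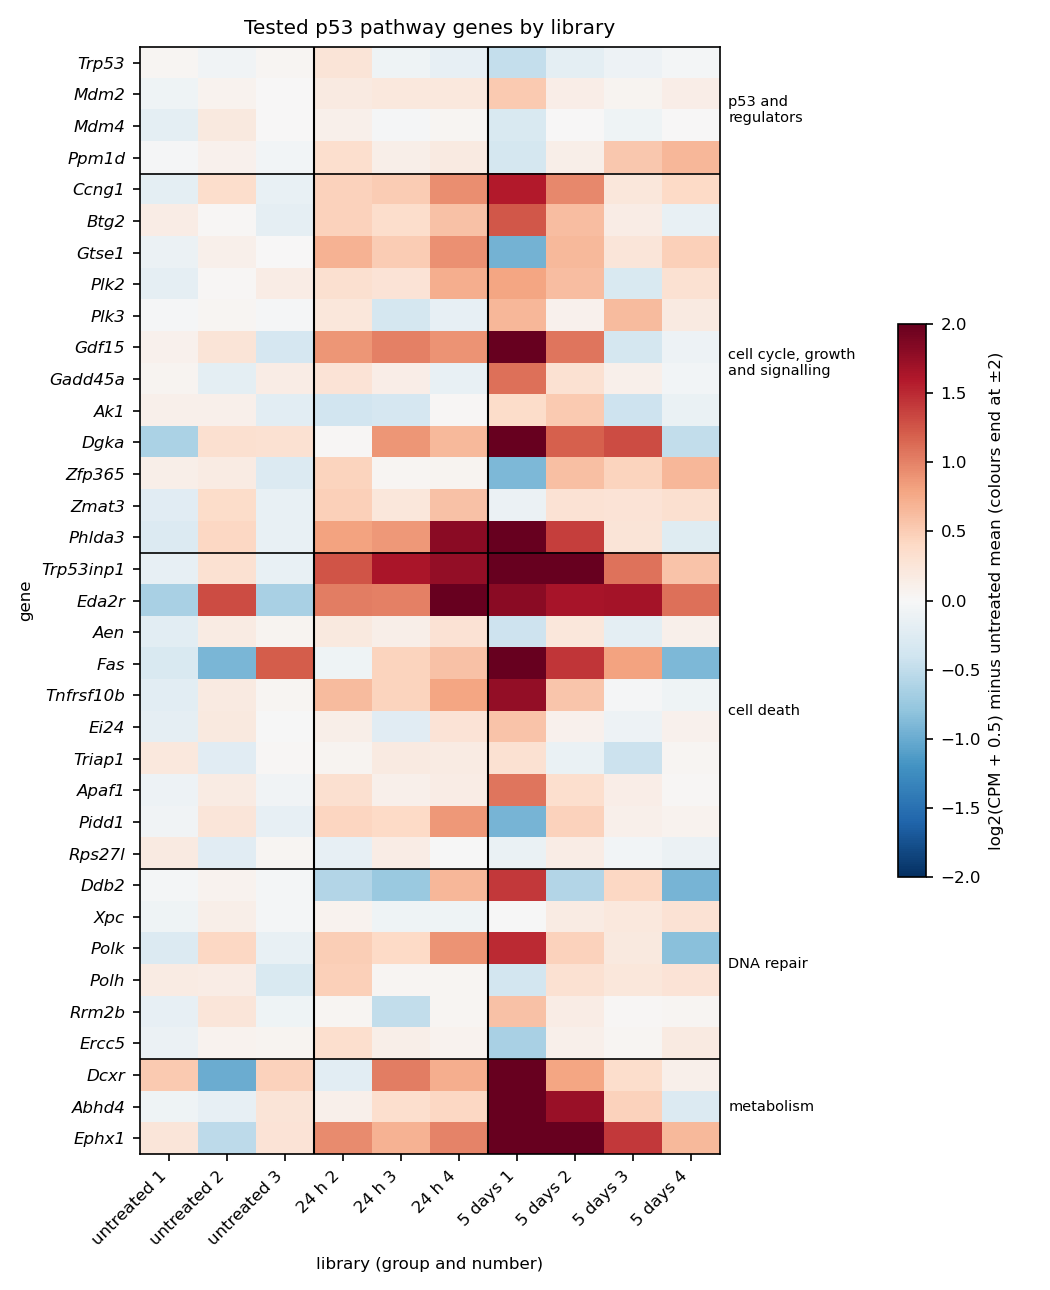
Heat map of the 35 tested p53 pathway genes (rows, grouped by role) in the 10 libraries (columns), as log2(CPM + 0.5) minus the untreated mean, with colours ending at ±2. The 24 h columns are mostly red and 5-day libraries 3 and 4 paler, while 5-day library 1 holds the strongest colours in both directions.

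The 24 h libraries did not all stand equally high. The median over the 35 genes of the log2 difference from the untreated mean was 0.31, 0.21 and 0.42 in 24 h libraries 2, 3 and 4, against -0.09, 0.12 and -0.02 in untreated libraries 1, 2 and 3. Library 4 was the highest of the 24 h group for 18 of 35 genes (51.4%), against 28.3% of all tested genes. Among untreated libraries, library 2 was the highest for 23 of 35 (65.7%), against 37.6% of all tested genes. The summed macrophage markers were also higher at 24 h, at 1243 to 1554 CPM, and 10 of the 12 had a higher mean than in untreated tumours. Schwann cell markers, 6 in number, summed to 30.0 to 62.5 CPM at 24 h and to 13.4 to 22.1 CPM in untreated tumours, and all 6 had a higher mean. The part of these cells in the values of the p53 genes was not tested.

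After 5 days the genes again lay mostly above untreated tumours, but the size depended on libraries 1 and 2. Over all 4 libraries, log2 fold changes were above 0 for 29 of 35 genes (82.9%, against 50.6% of all tested genes), with a median of 0.41 beside 0.01. Without library 1 they were above 0 for 29 of 34 (85.3%, against 49.5%), with a median of 0.24 beside -0.0032. Then 1 of the 34, Ddb2, was below -0.3 (2.94%, against 9.6%). Without libraries 1 and 2, 22 of 35 were above 0 (beside 7119 of 14943 of all tested genes), with a median of 0.07 beside -0.01. With Gdf15 and Fas left out, 27 of 33 (81.8%) were above 0 over all libraries and 28 of 33 (84.8%) without library 1. All 5-day libraries lay above all untreated ones for Plk3, Trp53inp1 and Ephx1, 3 of 35 genes (8.57%), against 3.91% of all tested genes. Without library 1 this held for 8 of 34 (23.5%, against 6.45%): Ppm1d, Gtse1, Plk3, Zfp365, Trp53inp1, Xpc, Polh and Ephx1. With or without it, 0 genes lay below, against 4.99% and 7.76% of all tested genes.

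edgeR called 0 genes of 14956 at 5 days (0%), and 0 of 14699 without library 1. At an unadjusted p under 0.05, 7 of 35 genes were higher (20%, against 6.38% of all tested genes) and 7 of 34 without library 1 (20.6%, against 4.65%). Leaving out Gdf15 and Fas the counts were 6 of 33 (18.2%) and 7 of 33 (21.2%). None was lower, against 2.03% of all tested genes, and 3.86% without library 1. DESeq2 called 15 higher (0.1%) and 6 lower genes (0.0401%) in all and none of the 35. Without library 1 it called 77, of which 58 were higher (0.395%), among them Trp53inp1 and Ephx1. The 5-day libraries formed a range: the median difference from the untreated mean was 0.67, 0.46, 0.20 and 0.08 on the log2 scale in libraries 1, 2, 3 and 4. Library 1 was the highest of all 10 libraries for 21 of 35 genes, against 37.6% of all tested genes, and the lowest for 9 (25.7%, against 38.4%). Of the remaining 5-day libraries, library 2 was the highest for 23 of 35 (65.7%), against 31.8% of all tested genes.

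**Figure D2:**
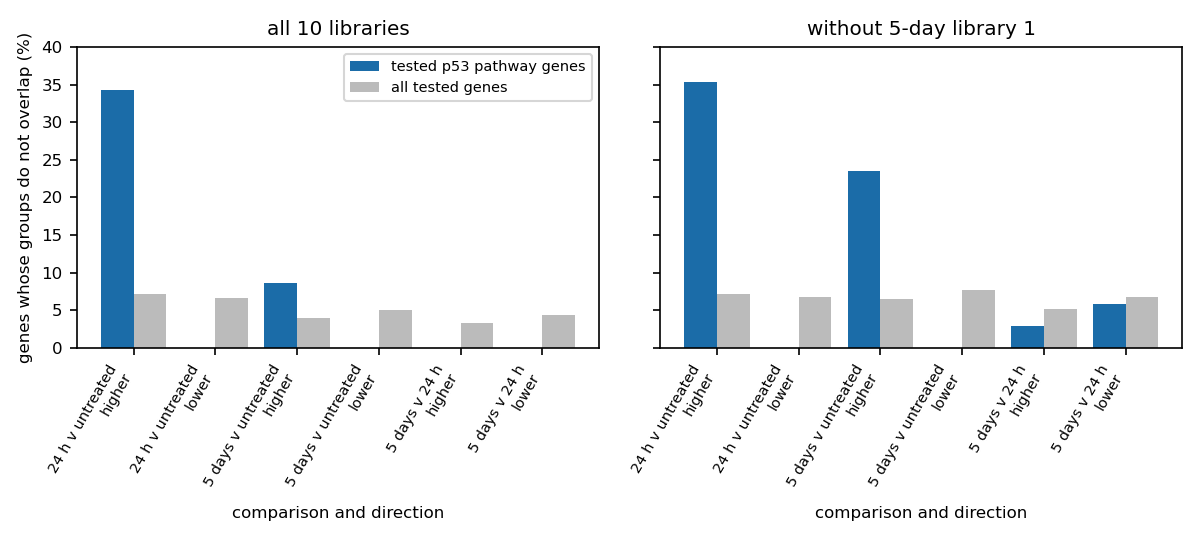
Bars give the share, in percent, of tested genes whose libraries in the first group all lay above (higher) or all below (lower) those of the second, for the p53 pathway genes and for all tested genes. With all libraries the p53 genes reach 34.3% at 24 h against 7.1%, and without 5-day library 1 they reach 23.5% at 5 days against 6.45%.

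Between 5 days and 24 h the p53 genes showed no common direction that held without library 1. With all libraries 23 of 35 log2 fold changes were above 0 (65.7%, against 52.8% of all tested genes), with a median of 0.13. Without library 1 only 12 of 34 were (35.3%, against 49.5%), with a median of -0.08. With all libraries 0 genes were separated in either direction, against 3.27% higher and 4.4% lower of all tested genes. Without library 1, Xpc lay above 24 h in every library (1 of 34, 2.94%, against 5.18%) and Mdm2 and Triap1 lay below (2 of 34, 5.88%, against 6.75%). edgeR called 0 genes of 14956 (0%). At an unadjusted p under 0.05 it gave 592 higher genes (3.96%) and 350 lower genes (2.34%) in all, with Plk3 and Ephx1 of the 35 among the higher. Without library 1 these were Plk3, Xpc and Zfp365 and no longer Ephx1, 3 of 34 (8.82%, against 3.67% of all tested genes), and 0 were lower, against 4.09%. DESeq2 called 3 genes, none of them of the 35. The 5-day and 24 h groups were both compared with the same 3 untreated libraries, so those results are not independent.

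Trp53 (chr11:69580359-69591873, plus strand, mm10) was at 111, 104 and 111 CPM in untreated tumours, at 129.8, 103 and 96.6 CPM at 24 h and at 77.9, 94.9, 101 and 106 CPM in 5-day libraries 1 to 4. The untreated and 24 h values overlapped, and the lowest value was that of 5-day library 1. Its log2 fold change (± SE) was 0.01 ± 0.15 at 24 h and -0.19 ± 0.14 at 5 days (edgeR adjusted p = 1.00 and 0.587), and -0.20 ± 0.14 between 5 days and 24 h. Without library 1 the 5-day value was -0.11 ± 0.11 (edgeR adjusted p = 0.817), and that between 5 days and 24 h was -0.13 ± 0.11.

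Mdm2, the ligase that marks p53 for destruction (chr10:117688875-117710758, minus strand), stood at 93.9, 105 and 99.3 CPM in untreated tumours. At 24 h it stood at 112, 115 and 115 CPM, a narrow group above every untreated library. At 5 days it was at 143 CPM in library 1 and at 109, 103 and 109 CPM in the others, which overlap the untreated range. Mdm2 had a log2 fold change of 0.20 ± 0.14 at 24 h and 0.23 ± 0.13 at 5 days (edgeR adjusted p = 1.00 and 0.543), and without library 1 the latter was 0.11 ± 0.08 (edgeR adjusted p = 0.739). Between 5 days and 24 h it was 0.03 ± 0.13 with library 1 and -0.10 ± 0.08 without it.

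Mdm4, the inhibitor that binds the transactivation domain of p53, was at 143, 188 and 166 CPM in untreated tumours and at 176, 163 and 170.0 CPM at 24 h. The 5-day values were 134, 166, 156 and 166 CPM for libraries 1 to 4. The groups overlapped, with log2 fold changes of 0.03 ± 0.13 at 24 h, -0.09 ± 0.13 at 5 days and -0.12 ± 0.13 between 5 days and 24 h. Without library 1 the last 2 were -0.03 ± 0.10 and -0.07 ± 0.10.

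Ppm1d encodes the phosphatase WIP1, which reverses phosphorylation by ATM on p53 and CHK2. It was at 38.8, 41.8 and 38 CPM in untreated tumours, at 50.1, 42.7 and 45 CPM at 24 h and at 30.7, 42.9, 57.5 and 62.9 CPM in 5-day libraries 1 to 4. All treated libraries but 5-day library 1 were above every untreated one. Ppm1d had a log2 fold change of 0.22 ± 0.24 at 24 h and 0.30 ± 0.22 at 5 days (edgeR adjusted p = 1.00 and 0.587). Without library 1 the 5-day value was 0.46 ± 0.13, with an unadjusted p of 0.00512 and an edgeR adjusted p of 0.363. Between 5 days and 24 h the log2 fold change was 0.08 ± 0.22 with library 1 and 0.24 ± 0.13 without it (edgeR adjusted p = 0.676 without it).

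**Figure D3:**
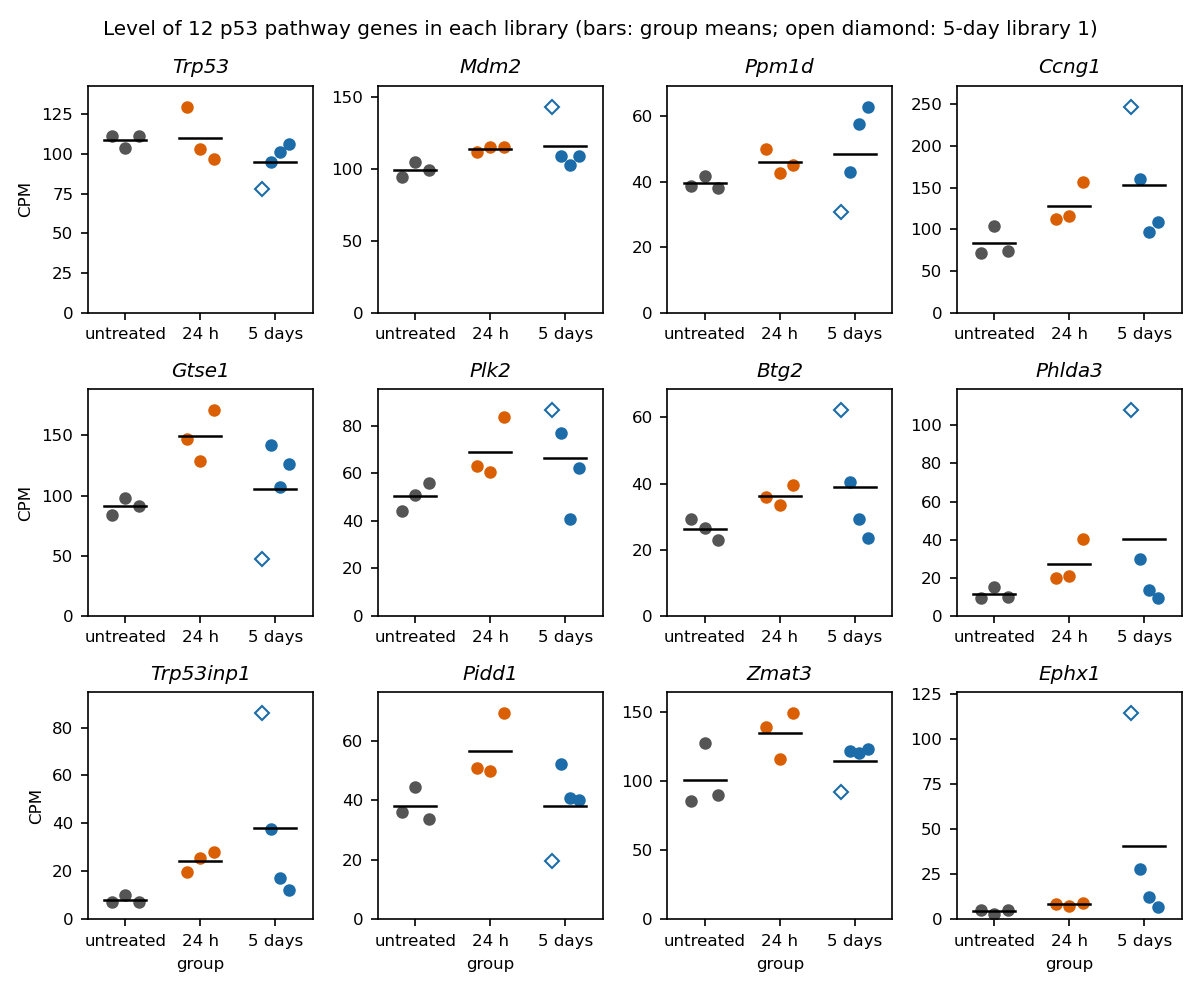
Levels of 12 p53 pathway genes in CPM on axes from 0, with 1 point per library, bars at group means and an open diamond for 5-day library 1. Mdm2, Gtse1, Trp53inp1 and Ephx1 at 24 h lie above all untreated points, and the diamond is the lowest point for Trp53, Ppm1d, Gtse1 and Pidd1.

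Of the 14 targets with roles in the cell cycle, growth and signalling, 12 were tested. At 24 h 10 of them were above 0 (against 48.5% of all tested genes), with a median log2 fold change of 0.46, and 6 were separated upwards (against 7.1%). Both counts include Gdf15, which passed the filter only through treated libraries. At 5 days all 12 were above 0, with a median of 0.44 with library 1 and 0.39 without it. Of all tested genes, 7567 of 14956 were above 0 with library 1 and 7276 of 14699 without it. Without libraries 1 and 2, 9 of the 12 were above 0 (beside 7119 of 14943), with a median of 0.14. For 4 of them (Ccng1, Gtse1, Zfp365 and Gadd45a), and for Rps27l of the death targets, the proximal promoter holds a stretch close to the p53 response element, which is a pair of p53 decamers (10 bases each). Promoters were RefSeq windows of GRCm38.p6 from 250 bases before to 50 bases after each start, where the start base is position 1. Ccng1 and Gtse1 had separated groups at 24 h, whereas the groups of Rps27l, Zfp365 and Gadd45a overlapped. Mdm2, Ppm1d, Btg2, Plk2, Gdf15, Phlda3, Pidd1 and Ephx1 were separated at 24 h too, and their windows held no such pair. Trp53inp1 and Tnfrsf10b, also separated, had no window to search. Whether the pairs go with the 24 h values was not tested. In the stretches printed below, capitals mark both decamers and lower case marks the bases between or around them.
Ccng1, chr11:40755337-40755536, minus strand, positions -250 to -51: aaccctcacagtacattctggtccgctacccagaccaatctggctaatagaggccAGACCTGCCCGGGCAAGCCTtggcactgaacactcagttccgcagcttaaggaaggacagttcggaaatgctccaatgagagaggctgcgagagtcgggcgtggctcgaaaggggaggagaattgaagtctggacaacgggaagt
Gtse1, chr15:85859945-85859964, plus strand, across the start: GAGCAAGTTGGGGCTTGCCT
Rps27l, chr9:66946296-66946315, plus strand, positions -117 to -98: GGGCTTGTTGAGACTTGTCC
Zfp365, chr10:67912716-67912747, minus strand, positions -85 to -54: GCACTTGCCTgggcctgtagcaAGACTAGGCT

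Ccng1, Gtse1 and Rps27l carried the pair with 1 mismatch and no base between the decamers, and Zfp365 with 2 mismatches and 12 bases between them. Gadd45a, not printed, carried it with 2 mismatches and 11 bases between. The search allowed up to 13 bases between and up to 2 mismatches. The decamer pattern is its own reverse complement, so both strands were covered. Such a pair was found in 5 of 45 windows of 30 of the genes (11.1%), against 4.09% of 32851 windows of all genes. A single decamer without mismatch was found in 12 of 45 (26.7%), against 8.36%. A pair without mismatch was in 0 of 45, against 0.0731%. A match is a description of letters and does not show binding, and sites outside these windows were not searched.

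Ccng1, cyclin G1, which directs a phosphatase to Mdm2, was at 71.1, 104 and 73.8 CPM in untreated tumours and at 112, 116 and 157 CPM at 24 h. All 24 h values were above the untreated ones. At 5 days it was at 247, 160.5, 96.2 and 108 CPM in libraries 1 to 4, of which library 3 fell within the untreated range. Ccng1 had a log2 fold change of 0.63 ± 0.35 at 24 h (edgeR adjusted p = 1.00) and 0.89 ± 0.33 at 5 days (edgeR adjusted p = 0.538), and without library 1 the latter was 0.56 ± 0.23 (edgeR adjusted p = 0.568).

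Gtse1, a microtubule-bound protein of G2 that carries p53 out of the nucleus, was at 83.5, 97.9 and 91.5 CPM in untreated tumours. At 24 h it was at 147, 129 and 171 CPM, and at 5 days at 46.9 CPM in library 1 and at 142, 107 and 126 CPM in the others. All treated libraries but 5-day library 1 were above every untreated one. For Gtse1 this was a log2 fold change of 0.71 ± 0.33 at 24 h (edgeR adjusted p = 1.00), and without 5-day library 1 it was 0.72 ± 0.13 (edgeR adjusted p = 0.155, DESeq2 adjusted p = 0.000861). The 5-day value was 0.22 ± 0.31 with library 1 and 0.46 ± 0.13 without it (edgeR adjusted p = 0.767 and 0.357).

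Gtse1 is also a gene of the G2 and M phases, so it was set beside 12 such genes. At 24 h 10 of the 12 were above 0, with a median log2 fold change of 0.27, and 5 were separated upwards. Of all tested genes, 48.5% were above 0 and 7.1% separated upwards. In 5-day library 1 all 12 were below the untreated mean, by a median of -1.40 on the log2 scale. Of all 14956 tested genes, 7181 were above that mean in library 1. In libraries 2 to 4 the median of the 12 was 0.11, 0.20 and 0.28. Aurka, which encodes the target of MLN8237, had a 24 h log2 fold change of 0.61 ± 0.38 with all libraries (edgeR unadjusted p = 0.136). Without 5-day library 1 it was 0.62 ± 0.11 (edgeR adjusted p = 0.155). With the replicate number as a block, the median of the 12 genes at 24 h was -0.05, with 7 of 12 below 0. In that fit 7758 of all 14956 tested genes were below 0, and Gtse1 was at 0.35 ± 0.29. How much of the Gtse1 values goes with the share of cells in G2 and M was not tested.

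Plk2, a polo-like kinase of the stress response, was at 44.4, 50.9 and 55.9 CPM in untreated tumours, at 63.0, 60.4 and 83.5 CPM at 24 h and at 86.7, 77.1, 40.7 and 62.0 CPM in 5-day libraries 1 to 4. The 24 h values lay above the untreated ones and the 5-day values ran across them. The log2 fold change was 0.45 ± 0.26 at 24 h and 0.41 ± 0.25 at 5 days, and the latter was 0.25 ± 0.22 without library 1 (edgeR adjusted p = 0.78). Plk3, its relative, was at 26.5, 27.9 and 26.6 CPM in untreated tumours and at 31.5, 21.1 and 24.1 CPM at 24 h, which overlap. At 5 days it was at 43.3, 28.7, 42.0 and 30.5 CPM in libraries 1 to 4, above every untreated library. Its log2 fold change at 5 days was 0.42 ± 0.20 (edgeR adjusted p = 0.538), and against 24 h it was 0.50 ± 0.20 (edgeR adjusted p = 0.581). Without library 1 these were 0.32 ± 0.18 and 0.40 ± 0.18 (edgeR adjusted p = 0.648 and 0.641).

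Btg2, an antiproliferative adaptor of mRNA deadenylation, was at 29.2, 26.6 and 22.9 CPM in untreated tumours and at 36.0, 33.4 and 39.4 CPM at 24 h. In 5-day libraries 1 to 4 it was at 62.3, 40.5, 29.2 and 23.6 CPM, so libraries 3 and 4 were at the untreated level. This gave log2 fold changes of 0.47 ± 0.32 at 24 h and 0.57 ± 0.30 at 5 days, and the latter was 0.25 ± 0.19 without library 1.

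Phlda3, which competes with AKT for membrane lipids, was at 9.25, 15.2 and 10.1 CPM in untreated tumours and at 19.97, 20.9 and 40.5 CPM at 24 h, with library 4 well above the others. In 5-day libraries 1 to 4 it was at 108, 29.9, 13.6 and 9.40 CPM. Phlda3 had a log2 fold change of 1.24 ± 0.83 at 24 h (edgeR adjusted p = 1.00). The 5-day value was 1.81 ± 0.80, and without library 1 it was 0.63 ± 0.47 (edgeR adjusted p = 0.538 and 0.748).

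Zmat3, an RNA-binding regulator of splicing, was at 85.0, 127 and 89.6 CPM in untreated tumours and at 139, 116 and 149 CPM at 24 h, which overlap through untreated library 2. In 5-day libraries 1 to 4 it was at 91.7, 121, 120.2 and 123 CPM. Zmat3 had a log2 fold change of 0.42 ± 0.19 at 24 h and 0.18 ± 0.18 at 5 days (edgeR adjusted p = 1.00 and 0.666), and without library 1 the latter was 0.28 ± 0.15.

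Gdf15, a secreted stress cytokine, was near the detection limit in 9 libraries. It was at 0.873, 1.05 and 0.521 CPM in untreated tumours and at 1.89, 2.09 and 1.91 CPM at 24 h. At 5 days it was at 34.0 CPM in library 1 and at 2.22, 0.515 and 0.709 CPM in the others. The 5-day log2 fold change was 3.48 ± 1.45 with library 1 and 0.50 ± 0.61 without it (edgeR adjusted p = 0.538 and 0.854). Dgka, a diacylglycerol kinase, was at 1.57, 3.48 and 3.47 CPM in untreated tumours, at 2.76, 5.40 and 4.52 CPM at 24 h and at 32.0, 6.84, 7.38 and 1.77 CPM in 5-day libraries 1 to 4. Its 5-day log2 fold change was 2.07 ± 0.86 with library 1 and 0.91 ± 0.52 without it (edgeR adjusted p = 0.538 and 0.663), and the groups overlapped.

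The other genes of this role were Gadd45a, a growth arrest gene, Ak1, an adenylate kinase, and Zfp365, which protects fragile sites. Gadd45a and Ak1 overlapped between all groups. Zfp365 was at 24.1, 25.1 and 18.2 CPM in untreated tumours and at 11.7 CPM in 5-day library 1. It was at 34.0, 30.5 and 35.6 CPM in 5-day libraries 2 to 4, all above the untreated values. Its 5-day log2 fold change was 0.32 ± 0.34 with library 1 and 0.57 ± 0.16 without it (edgeR adjusted p = 0.693 and 0.35).

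**Figure D4:**
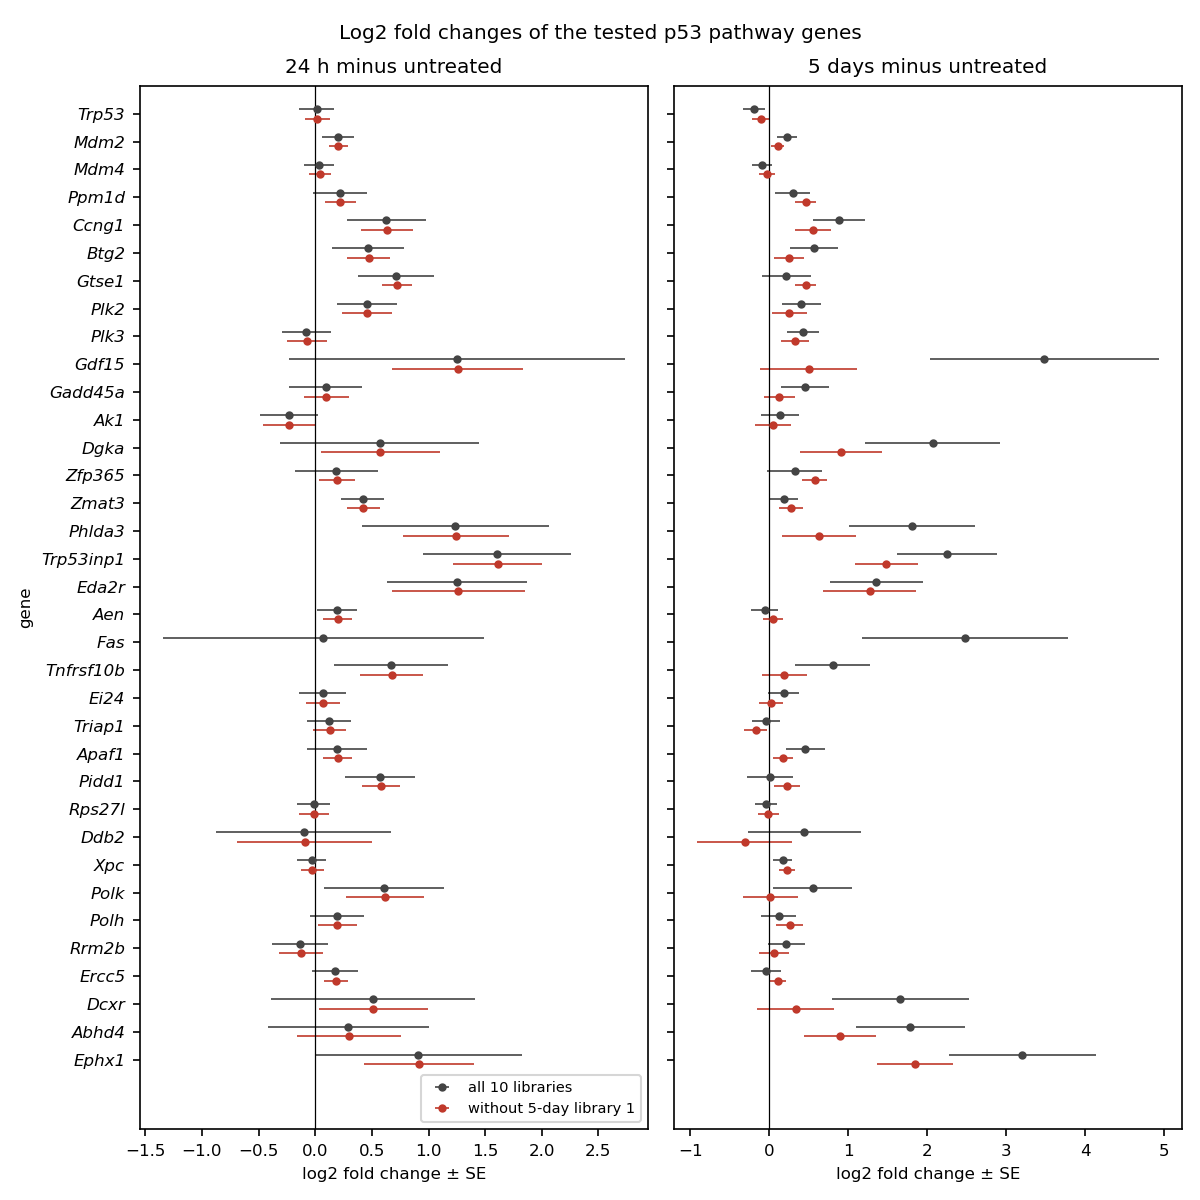
Log2 fold changes (points) with standard errors (lines) of the tested p53 pathway genes at 24 h and at 5 days against untreated tumours, with all 10 libraries and without 5-day library 1. At 24 h the points hardly move between the fits while the errors shrink, and at 5 days Gdf15, Ephx1, Dgka and Phlda3 move towards 0 without that library.

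Of the death targets, 10 of 11 were tested and 9 were above 0 at 24 h, beside 7259 of all 14956 tested genes. Their median log2 fold change was 0.19. The 10 include Fas, which passed the filter only through treated libraries. Trp53inp1 (chr4:11156431-11174379, plus strand) was the clearest. It was at 6.98, 9.93 and 7.12 CPM in untreated tumours and at 19.6, 25.6 and 28 CPM at 24 h. In 5-day libraries 1 to 4 it was at 86.1, 37.5, 17.3 and 12.1 CPM. Every treated library was above every untreated one. The mean at 24 h was 3.04 times the untreated one, with a log2 fold change of 1.60 ± 0.65, an unadjusted p of 0.035 and an edgeR adjusted p of 1.00. It was called without 5-day library 1 by DESeq2 (adjusted p = 0.0113), and not by edgeR (adjusted p = 0.324). At 5 days the log2 fold change was 2.26 ± 0.64 with library 1 and 1.48 ± 0.39 without it (edgeR adjusted p = 0.538 and 0.343, DESeq2 adjusted p = 0.025 without it).

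Eda2r, a death receptor of the TNF receptor family, was at 1.92, 8.88 and 1.91 CPM in untreated tumours, so untreated library 2 was within the treated range. It was at 7.23, 7.14 and 16.0 CPM at 24 h and at 12.8, 11.5, 11.5 and 7.62 CPM in 5-day libraries 1 to 4. The log2 fold change was 1.25 ± 0.62 at 24 h and 1.35 ± 0.59 at 5 days (edgeR adjusted p = 1.00 and 0.538), and without 5-day library 1 the latter was 1.27 ± 0.59 (edgeR adjusted p = 0.608). Without untreated library 2 the 24 h value was 2.40 on the log2 scale.

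Pidd1, the scaffold of the caspase-2 complex, was at 36.0, 44.6 and 33.7 CPM in untreated tumours and at 51.0, 49.8 and 69.3 CPM at 24 h, all above. In 5-day libraries 1 to 4 it was at 19.7, 52.2, 40.8 and 39.9 CPM, which run across the untreated range. The log2 fold change was 0.57 ± 0.31 at 24 h, and 0.58 ± 0.17 without 5-day library 1 (edgeR adjusted p = 1.00 and 0.402). Between 5 days and 24 h it was -0.57 ± 0.29 with library 1 and -0.36 ± 0.17 without it (edgeR adjusted p = 0.581 and 0.651).

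Tnfrsf10b, the mouse TRAIL receptor, was at 4.02, 5.40 and 4.86 CPM in untreated tumours and at 7.58, 6.62 and 8.51 CPM at 24 h, all above. Fas, another death receptor, was at 0.174 to 2.43 CPM in untreated and at 0.689 to 1.39 CPM in 24 h tumours. In 5-day libraries 1 to 4 it was at 19.0, 2.91, 1.72 and 0.177 CPM. The apoptosome scaffold Apaf1 was at 30.4 to 36.6 CPM in untreated tumours, at 35.2 to 40.6 CPM at 24 h and at 68.8 CPM in 5-day library 1. The mean of 5-day libraries 2 to 4 was 36.7 CPM, with a log2 fold change of 0.17 ± 0.13 against untreated tumours. The exonuclease gene Aen, the membrane protein gene Ei24, Triap1 and Rps27l overlapped between 24 h and untreated tumours, with log2 fold changes of -0.01 to 0.19. Rps27l, whose promoter pair is printed above, was at 106, 79.1 and 95.5 CPM in untreated and at 82.8, 102 and 92.6 CPM in 24 h tumours.

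The repair targets showed the smallest shift. At 24 h 3 of 6 were above 0, beside 7259 of all 14956 tested genes. The median log2 fold change was 0.07 and no group was separated. The 6 encode damage sensors of nucleotide excision repair (Ddb2, Xpc), the excision nuclease Ercc5, translesion polymerases (Polk, Polh) and the ribonucleotide reductase subunit Rrm2b. Xpc was at 34.1, 39.5 and 35.4 CPM in untreated tumours and at 38.2, 34.1 and 34.2 CPM at 24 h. It was at 40.9, 42.0 and 44.3 CPM in 5-day libraries 2 to 4, above both earlier groups, and at 35.9 CPM in library 1. Its 5-day log2 fold change was 0.17 ± 0.12 with library 1 and 0.22 ± 0.10 without it (edgeR adjusted p = 0.577 and 0.587). Polk had the highest 24 h value of the 6, 0.61 ± 0.53, with overlapping groups.

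The metabolic targets were Ephx1, Abhd4, a lysophospholipase, and Dcxr, which reduces xylulose. Ephx1 was at 5.06, 2.79 and 5.21 CPM in untreated tumours, at 8.61, 7.14 and 8.86 CPM at 24 h and at 114, 27.9, 12 and 6.91 CPM in 5-day libraries 1 to 4. Every treated library was above every untreated one. The log2 fold change was 0.91 ± 0.92 at 24 h (edgeR adjusted p = 1.00) and 3.21 ± 0.93 at 5 days (edgeR adjusted p = 0.538). Without library 1 the 5-day value was 1.85 ± 0.48 (edgeR adjusted p = 0.336, DESeq2 adjusted p = 0.0267). Against 24 h it was 2.30 ± 0.88 with library 1 and 0.93 ± 0.45 without it (edgeR adjusted p = 0.581 and 0.66). Abhd4 was at 12.9, 12.2 and 16.5 CPM in untreated and at 14.8, 17.6 and 18.6 CPM in 24 h tumours, and at 114, 46.7, 19.0 and 11.3 CPM in 5-day libraries 1 to 4. Its 5-day log2 fold change was 1.79 ± 0.69 with library 1 and 0.90 ± 0.45 without it (edgeR adjusted p = 0.538 and 0.63), and against 24 h it was 1.49 ± 0.68 and 0.60 ± 0.45.

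For Ephx1 and Abhd4 the order of the 5-day libraries was 1 above 2 above 3 above 4. The summed macrophage markers (14004, 1650, 1603 and 989 CPM) and adipocyte markers (8723, 1160, 207 and 65.4 CPM) had this order as well. So did T and NK cell (84.1, 12.7, 8.92 and 5.85 CPM), endothelial (474, 120, 84.9 and 31.6 CPM) and Schwann cell markers (97.8, 47.4, 39.6 and 17.4 CPM). The order therefore does not single out a cell type. Neuroblast, fibroblast, adrenal cortex, hepatocyte, skeletal muscle and epithelial markers did not have it. Hepatocyte markers summed to 367 and 410.2 CPM in libraries 1 and 2 and to 3.95 and 1.95 CPM in libraries 3 and 4. The part of these cells in both genes was not tested. Trp53inp1, Phlda3, Btg2 and Fas had the same order over the 5-day libraries. Library 1 was the highest of the 5-day group for 22 of 35 genes (62.9%), against 42.7% of all tested genes. How many genes in all share the whole order was not counted. At 24 h the adipocyte markers, at 90.7 to 309 CPM, lay within the untreated range of 82.6 to 592 CPM. The hepatocyte markers, at 1.21 to 3.48 CPM, lay within that of 0.175 to 75.9 CPM. Untreated library 3 alone set both upper ends, and the next highest untreated sums were 115 and 5.92 CPM. Macrophage, Schwann cell and skeletal muscle sums were higher in every 24 h library than in any untreated one. Their lowest 24 h sums were 1243, 30.0 and 7.06 CPM, against highest untreated sums of 999, 22.1 and 5.94 CPM. Of the 6 skeletal muscle markers, only 3 had a higher mean at 24 h than in untreated tumours, and 1 was at 0 in all libraries. The part of these cells in the 24 h values was not tested.

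Other genes of the pathway were taken as lists. Of 16 upstream kinases, cofactors and ligases, 7 were above 0 at 24 h and 9 below, beside 7259 of all 14956 tested genes above 0. Their median log2 fold change was -0.10. Of the 16, 3 were separated upwards and 2 downwards (against 7.1% and 6.67% of all tested genes). Chek2, the kinase that ATM activates, was at 28.5, 22.5 and 24.3 CPM in untreated tumours and at 48.0, 42.3 and 45.2 CPM at 24 h, 1.80 times the untreated mean. Its log2 fold change was 0.85 ± 0.18, with an unadjusted p of 0.000955 and an edgeR adjusted p of 1.00 (0.077 without 5-day library 1). limma voom with library weights called it (adjusted p = 0.0454), as did DESeq2 without library 1 (adjusted p = 0.000104). Atm had a 24 h log2 fold change of -0.46 ± 0.28 and overlapping groups, and Chek1 had one of -0.63 ± 0.27 at 5 days (edgeR adjusted p = 0.538), which was -0.41 ± 0.12 without library 1 (edgeR adjusted p = 0.363).

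Of 16 other targets, 14 were tested and 10 were above 0 at 24 h, beside 7259 of all 14956 tested genes. Their median log2 fold change was 0.28, and 7 were separated upwards (50%, against 7.1% of all tested genes). The p53 relatives Trp63 and Trp73 were at or near 0 and not tested. The CDK inhibitor gene Cdkn1a was at 10.1, 27.0 and 14.6 CPM in untreated and at 33.1, 39.3 and 69.3 CPM in 24 h tumours, a log2 fold change of 1.45 ± 0.79 (edgeR adjusted p = 1.00). Sesn2, a stress-induced brake on mTORC1, was at 1.94 ± 0.51, and the BH3-only death gene Bbc3 was at 0.81 ± 0.25 (log2 fold changes at 24 h). Slc19a2, a thiamine transporter, was at 0.98 ± 0.24 and Ddit4, another brake on mTORC1, at 0.44 ± 0.18. All 4 had an unadjusted p under 0.05 and an edgeR adjusted p of 1.00. DESeq2 without 5-day library 1 called Sesn2, Bbc3, Slc19a2 and Cdkn1a at 24 h, and edgeR with the untreated and 24 h libraries alone called Sesn2 (adjusted p = 0.0183). Tigar, which lowers glycolytic flux, stood in the other direction at both times. Its log2 fold change was -0.45 ± 0.22 at 24 h (edgeR unadjusted p = 0.064) and -0.59 ± 0.20 at 5 days (edgeR adjusted p = 0.538). Without library 1 the 5-day value was -0.49 ± 0.17 (edgeR adjusted p = 0.47).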

How the data were processed

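RNA from 10 tumour libraries was analysed from the deposited whole-number counts per Ensembl gene. Per the submitters' processing notes, the build named is mm10, with TopHat2 2.1.1, HISAT2 and edgeR among the tools. The sources used here name neither the read counter nor its strand setting. Identifiers were joined to GENCODE M21, which matched 54409 of 54446. The genes and lists were chosen with earlier results of these data known. Genes passed filterByExpr in edgeR 4.0.16 (R 4.3.3) (minimum count 10, minimum total 15), leaving 14956. Library sizes were scaled with TMM (0.812 for 5-day library 1, 1.001 to 1.039 otherwise). All 10 libraries entered a fit of group means with robust dispersions. The 3 comparisons used the quasi-likelihood F test with Benjamini-Hochberg adjustment over all tested genes (threshold 0.05). Standard errors came from the F statistic. A group pair was called separated when no library value overlapped.

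Every gene could be named. Full statistics were kept for Trp53, Mdm2, Mdm4, Ppm1d and the genes with the smallest unadjusted p (10 at 24 h, 8 at 5 days, 4 between treated groups), and for other pathway genes at an unadjusted p under 0.05 or called in an alternative, and for Cdkn1a, Bbc3, Sesn2, Atm and Chek2. Xpc, Zfp365, Polk and the remaining genes outside it were chosen after their values were seen. Alternatives were DESeq2 1.42.0, its size factors, other filters, fewer libraries, the replicate number as a block and limma 3.58.1 voom with library weights. After seeing the data, DESeq2 and the fit of the compared groups were also run without 5-day library 1. Fits were tested on simulated data. One marker gene is not reported here and is left out of the marker sums. No pair of libraries agreed within sampling noise. Whether replicate numbers pair the samples could not be decided. Plots used Python 3.11.15 and matplotlib 3.10.9.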

Additional observations from a re-analysis of the deposited data

Results flagged for a closer look

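In the 5-day group, 1 library of 4 lay far from the other 3 for Mdm2, Gdf15 and Zmat3, by Dixon's criterion for single outlying values, and in each case it was library 1. Mdm2 was at 143 CPM there, against 103 to 109 CPM. Gdf15 was at 34.0 CPM, against 0.515 to 2.22 CPM. Zmat3 was at 91.7 CPM, below the 120.2 to 123 CPM of the others. The criterion was met by 6 of the 35 tested p53 pathway genes (17.1%), also Fas, Polh and Dcxr, and by 22.1% of all tested genes in this group. Chance alone marks about 1 in 20 groups. Of the 35 genes, 23 were above every untreated library in library 1 and 9 were below, against 42.1% and 45.5% of all tested genes.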

How the results depend on the processing

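At 24 h, edgeR called 0 genes in all and none of the p53 genes under most settings. It called 7 with the compared groups only (1 of the p53 genes), 2 without 5-day library 1, 3 without 5-day libraries 1 and 2, and limma voom called 3. DESeq2 without 5-day library 1 called 105 (2 of the p53 genes), 77 at 5 days (2 of them) and 20 between 5 days and 24 h. With all libraries DESeq2 called 21 at 5 days and 3 between the treated groups, where edgeR without 5-day libraries 1 and 2 called 2. The cause was not tested. Leaving out 1 library in turn gave 0 to 2 called genes at 24 h and 0 at 5 days and between the treated groups. These fits tested 34 to 36 of the p53 genes and 14699 to 15489 genes in all. The p53 genes above 0 then numbered 28 to 33 at 24 h, 27 to 31 at 5 days and 12 to 26 between the treated groups. Of all tested genes, 7280 to 7931, 7239 to 8443 and 7283 to 8633 were above 0 in these comparisons. In deviations from the group means, 0 of 10 libraries correlated best with a library of the same number. Between untreated and 24 h libraries, however, the same-number pairs had the highest correlations (0.21 for number 2 and 0.25 for number 3). The other pairs of these groups ran from -0.29 to 0.049. The 5-day deviations were taken from a mean that includes library 1, so the check cannot decide whether replicate numbers pair the libraries. With the replicate number as a block, 0 genes were called in each comparison, as without it, and log2 fold changes turned sign for 6 of the 35 genes at 24 h, 2 at 5 days and 6 between the treated groups. At 24 h these were Zfp365, Plk3, Ddb2, Rps27l, Trp53 (-0.040) and Mdm4 (-0.060), and at 5 days Gtse1 (-0.017) and Pidd1 (-0.16). Between the treated groups they were Gdf15 (2.23 to -0.40), Trp53inp1 (0.65 to -0.050), Phlda3 (0.57 to -0.37), Btg2 (-0.17), Tnfrsf10b (-0.27) and Mdm2 (-0.027). How many of all tested genes turned sign was not counted. Without a change of sign, the block lowered the 24 h values of Ppm1d (0.22 to 0.011), Gtse1 (0.71 to 0.35) and Pidd1 (0.57 to 0.29). It raised those of Trp53inp1 (1.60 to 2.12), Ephx1 (0.91 to 1.74) and Btg2 (0.47 to 0.76), among others. The 24 h value of Trp53 was -0.074 with limma voom and ran from -0.13 to 0.10 with 1 library left out, that of Mdm4 from -0.062 to 0.14, and that of Mdm4 at 5 days from -0.19 to 0.011. Without 5-day libraries 1 and 2, the 5-day values of Phlda3 and Gdf15 were -0.0040 and -0.40, and against 24 h those of Abhd4 and Mdm2 were -0.16 and -0.11. Against 24 h, Mdm2 was also -0.11 with limma voom, -0.10 without 5-day library 1, -0.085 with DESeq2 without it and -0.10 with the compared groups without it. With 1 library left out it ran from -0.10 to 0.084 and Ppm1d from -0.065 to 0.24. The median over the p53 genes between the treated groups was -0.02 with the block and ran from -0.08 to 0.24 with 1 library left out.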
